A study of Arabidopsis thaliana with 4 samples.

Results

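The sugar transporters described here are the 10 Arabidopsis SWEET genes outside the sucrose-exporting clade, SWEET1 to SWEET8, SWEET16 and SWEET17. They were chosen by name, from the probe sets that the platform annotation pairs with exactly 1 gene. All 10 were found, each with a single probe set, among 22746 plant probe sets of which 13513 had 1 gene. SWEET5 carries its older symbol AtVEX1 in that annotation. The arrays are Affymetrix ATH1 chips, on which each probe set gives 1 intensity, a linear brightness that stands for the amount of transcript.

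SWEET proteins sit in membranes and let sugars pass down their concentration gradient without using proton energy. They work in either direction, so that the same protein can release sugar from a cell or take it up. In Arabidopsis they fall into 4 clades. Members of clades I and II mainly carry glucose and other hexoses, clade III exports sucrose to the phloem, and clade IV sits in the tonoplast, the vacuolar membrane, where it moves fructose and other sugars in and out of the vacuole.

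Whole Arabidopsis thaliana seedlings with roots of 2 to 3 cm were taken from agar plates into a diluted Murashige and Skoog liquid with 1% sucrose. They stayed there for 16 h, with 50 µM aluminium for the treated group and a mock treatment for the controls. Each of the 4 arrays held RNA from 100 pooled seedlings, 2 arrays for aluminium and 2 for the controls, which the labels call biological replicates. The labels give the same sugar-containing liquid for both groups and name no ecotype, mutation or transgene. Since whole seedlings were extracted, a lower value can mean fewer cells of a type or less transcript in each cell, and these cannot be told apart.

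Over all plant probe sets the 2 aluminium arrays differed by a median of 0.90 in size on the log2 scale, and the 2 control arrays by 0.76. The intensity below which 95% of 27 probe sets for bacterial genes lay, used here as a strict background level, was 422 to 586. Between 35.1% and 45.3% of plant probe sets exceeded it. Aluminium replicate 1 stood apart by GAPDH. The 3′ to 5′ ratio of this control, which is larger where transcripts are shortened, was 3.52 there and 1.44 to 1.71 on the other arrays. For actin the ratio was 6.01 and 3.07 on aluminium replicates 1 and 2, and 2.78 and 1.94 on control replicates 1 and 2. By actin both aluminium arrays thus exceeded both controls. Organ markers were checked against the label of whole seedlings. RCA and PRK of photosynthesis exceeded the background level on all 4 arrays, LHCB4.1 on 3 and the root glucosidase PYK10 on 3, whereas the root hair expansin EXPA7 did so on none.

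Setting aluminium against control addresses which transcripts respond to the metal. Among the hexose SWEET genes, SWEET17, the vacuolar fructose transporter, read lower on both aluminium arrays and had the largest difference, −2.17 on the log2(intensity + 16) scale (standard error 0.93). SWEET6 read higher on both, by 1.66 (standard error 0.80). SWEET1, SWEET4 and SWEET8 read lower on both aluminium arrays by 0.73 to 0.92. SWEET2, SWEET3, SWEET5, SWEET7 and SWEET16 had overlapping groups. None of the 10 passed limma adjusted over all plant probe sets, with adjusted p from 0.966 to 0.994.

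That result has to be read against the whole array, where 0% of probe sets passed the same test at an adjusted p of 0.05. Without adjustment, 1084 probe sets (4.77%) and 0 of the 10 SWEET genes had a limma p under 0.05. The half-width of the typical 95% interval was 1.98 in log2 units, which is 3.94-fold. A count of 0 here does not show that the genes were unchanged. Aluminium arrays lay both above the controls for 1 of the 10 genes, against 16.5% of all plant probe sets, and both below for 4 of the 10, against 16.2%. With a further demand of means at least 2-fold apart, 1 gene was higher (SWEET6) and 1 lower (SWEET17), where 9.66% and 9.93% of all plant probe sets were. The share of the 10 genes in each of these 2-fold classes was therefore close to that of all plant probe sets.

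**Figure D1:**
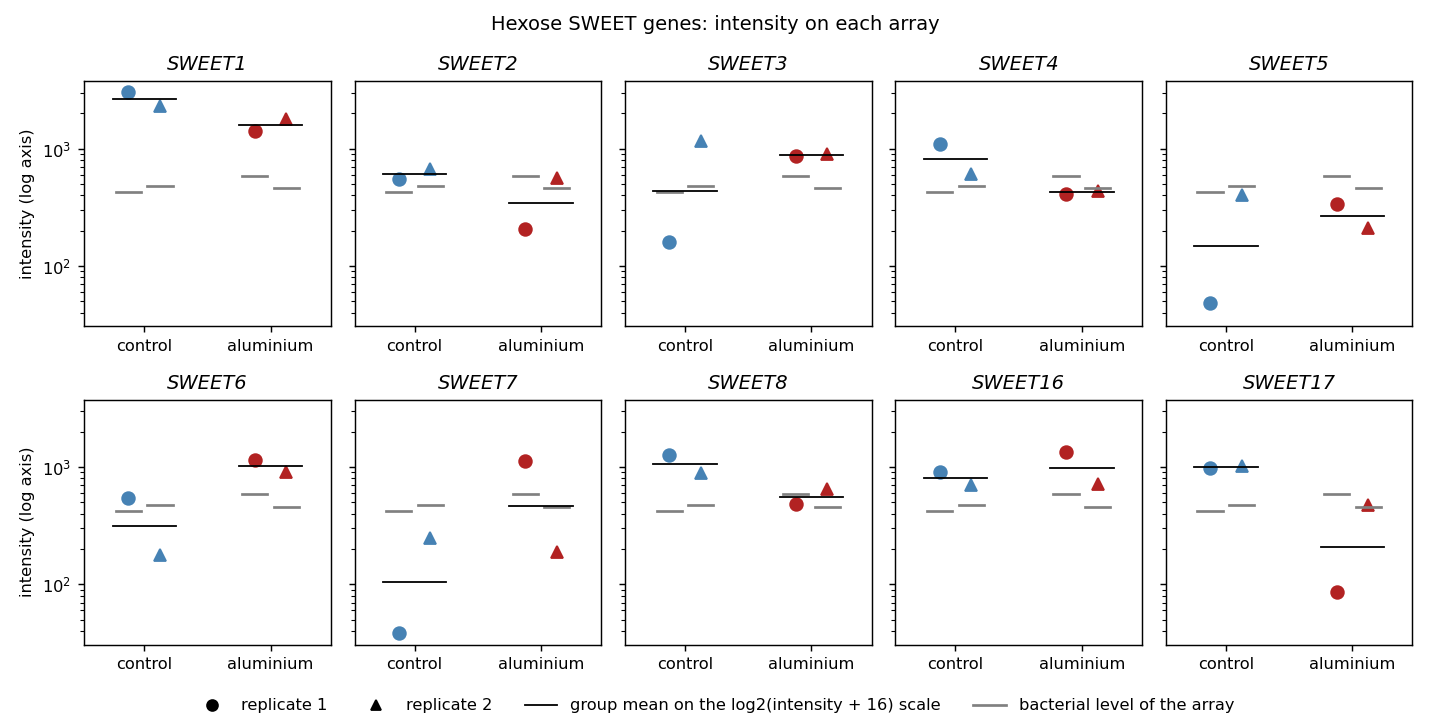
Intensity of each hexose SWEET gene on each array, on a log axis. Circles are replicate 1 and triangles replicate 2 (blue control, red aluminium), black lines are group means on the log2(intensity + 16) scale (n = 2), and grey lines are the bacterial background level of each array. For SWEET17 the aluminium arrays read 86.7 and 472 and the control arrays 976 and 1013. For SWEET3, SWEET5 and SWEET7 the lowest array was control replicate 1.

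Clade I holds SWEET1, SWEET2 and SWEET3. SWEET1 is a glucose transporter of the plasma membrane and was above the background level on all 4 arrays. Its intensity was 1413 and 1769.8 on aluminium replicates 1 and 2, and 3024 and 2291 on control replicates 1 and 2, and the values of each treatment keep this order for the other genes. Both aluminium arrays lay below both controls, and the arrays of each treatment lay close together. On the log2(intensity + 16) scale the aluminium arrays averaged 10.64 ± 0.23 and the controls 11.37 ± 0.28 (SD, n = 2 each). The difference of −0.73 had a 95% interval from −2.40 to 0.94 (limma, adjusted p = 0.966), and it stayed between −0.93 and −0.53 when any 1 array was left out.

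SWEET2 is a transporter of the vacuolar membrane known from roots, where it limits the loss of sugar to the surrounding soil. Aluminium replicates 1 and 2 read 206 and 558, and control replicates 1 and 2 read 549 and 674. The low array was aluminium replicate 1, while aluminium replicate 2 lay between the controls, so the groups overlapped. The difference was −0.81 (standard error 0.78, interval from −2.72 to 1.11), and −0.12 without aluminium replicate 1 but −1.49 without aluminium replicate 2.

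SWEET3 is a less studied relative. The aluminium intensities were 859 and 905, and the control intensities 160.1 and 1152. The aluminium arrays agreed closely and lay between the control arrays, which were 7.20-fold apart in intensity. The aluminium arrays averaged 9.81 ± 0.05 and the controls 8.83 ± 1.93 (SD, n = 2 each). The resulting difference of 0.98 (interval from −1.56 to 3.53) turned to −0.38 without control replicate 1 and was 2.35 without control replicate 2.

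Clade II is the largest group here, with SWEET4 to SWEET8. SWEET4 moves glucose and fructose across the plasma membrane and is known from the veins. With aluminium its intensity was 413 and 436, and without it 1096 and 609.8. Both aluminium values were under the background level of their arrays and both control values above it. The aluminium arrays averaged 8.78 ± 0.05 and the controls 9.70 ± 0.59 (SD, n = 2 each). The difference of −0.92 had an interval from −2.65 to 0.81 (limma, adjusted p = 0.966), and was −0.51 without control replicate 1.

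SWEET8 is known from anthers, where it is needed for the pollen wall. In these seedlings its probe set exceeded the background level on 3 of 4 arrays. The aluminium arrays read 486 and 647 and the control arrays 1259 and 885, so that the groups did not overlap. The aluminium arrays averaged 9.17 ± 0.28 and the controls 10.07 ± 0.35 (SD, n = 2 each). The difference was −0.89, with an interval from −2.58 to 0.79, and stayed between −1.15 and −0.64 when any 1 array was left out.

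SWEET5 takes its older name, VEX1, from the vegetative cell of pollen. Its 4 intensities all lay under the background level, at 336 and 212 with aluminium and 48.6 and 399 in controls. No level above background was thus measured for this pollen gene in the seedlings. Its difference of 0.79 (standard error 1.04) turned to −0.55 without control replicate 1 and was 2.13 without control replicate 2.

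SWEET6 was the 1 gene of the 10 whose aluminium arrays both lay above both controls. Its aluminium intensities were 1154 and 908, and its control intensities 545 and 178. The aluminium arrays were alike and above background, while the controls differed from each other and control replicate 2 was under the background level. The aluminium arrays averaged 10.02 ± 0.24 and the controls 8.36 ± 1.08 (SD, n = 2 each). The difference of 1.66 corresponds to a 3.15-fold higher level on that scale, with an interval of the log2 difference from −0.32 to 3.64 (limma, adjusted p = 0.966). Leaving out control replicate 2 gave 0.89, and leaving out control replicate 1 gave 2.42.

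SWEET7, a glucose transporter of the same clade, had the largest positive difference, 2.02, and also the widest interval, from −0.91 to 4.94. The aluminium arrays gave 1131 and 189, and the control arrays 38.2 and 249. Only aluminium replicate 1 was above the background level, and the other aluminium array lay between the controls. Without aluminium replicate 1 the difference was 0.77, and without control replicate 1 it was 0.87. It was 3.26 without aluminium replicate 2 and 3.16 without control replicate 2.

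Clade IV consists of SWEET16 and SWEET17, both of the vacuolar membrane. SWEET16 carries glucose, fructose and sucrose. It was above background on all 4 arrays and gave intensities of 1335 and 710.0 on the aluminium arrays and of 916 and 700.0 on the control arrays. Aluminium replicate 2 and control replicate 2 were nearly equal. The difference of 0.28 (interval from −1.49 to 2.05) was the smallest in size of the 10, and ranged from −0.17 without aluminium replicate 1 to 0.73 without aluminium replicate 2.

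SWEET17 releases fructose from the vacuole and is known from roots and leaf veins. Its control intensities were 976 and 1013, and its aluminium intensities 86.7 and 472. The controls were nearly identical and both above background, whereas the aluminium arrays differed from each other and 1 of them was far under the background level. The aluminium arrays averaged 7.81 ± 1.59 and the controls 9.98 ± 0.04 (SD, n = 2 each). The difference of −2.17 amounts to a 4.51-fold lower level on that scale, with an interval of the log2 difference from −4.47 to 0.12 (limma, adjusted p = 0.966). The array with the lowest value was aluminium replicate 1, and without it the difference was −1.05, against −3.30 without aluminium replicate 2. Of the 10 genes this had the smallest unadjusted p.

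**Figure D2:**
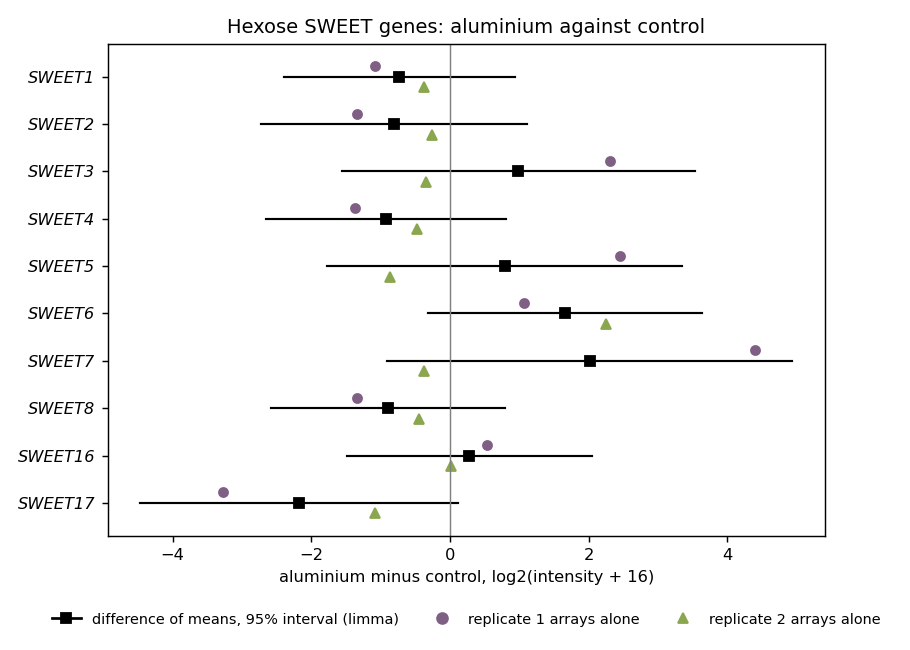
Difference between aluminium and control for each hexose SWEET gene on the log2(intensity + 16) scale. Black squares with bars are the difference of means with its 95% interval from limma, circles the difference between the replicate 1 arrays and triangles that between the replicate 2 arrays. Every interval includes 0, and the circle lies farther from 0 than the triangle for 9 of the 10 genes. Replicate numbers were not taken to pair arrays.

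The treatment difference was mostly larger between the arrays numbered 1 than between those numbered 2. The numbers were not taken to pair arrays, so this split only describes the values, and another matching of the arrays would give other differences. Its median size over the 10 genes was 1.36 in replicate 1 and 0.41 in replicate 2 on the log2 scale, and it was the larger in replicate 1 for 9 of the 10. Over all plant probe sets the medians were 0.96 and 0.62, and replicate 1 had the larger difference in 62.1%. SWEET6 was the exception, with 1.06 in replicate 1 and 2.25 in replicate 2. The sign was shared by both numbers for 7 of the 10 genes, where 51.6% of all plant probe sets shared it. The 3 genes with opposite signs were SWEET3 (2.31 and −0.34), SWEET5 (2.45 and −0.86) and SWEET7 (4.40 and −0.37). In each of these 3, control replicate 1 held the lowest of the 4 values.

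By clade the directions were mixed. In clade I 2 of 3 genes had a negative difference, in clade II 2 of 5 and in clade IV 1 of 2. Of the 3 genes assigned to the vacuolar membrane, SWEET2, SWEET16 and SWEET17, 2 were negative. The median difference of all 10 was −0.23, with 5 positive and 5 negative, beside a median of 0.0064 over all plant probe sets. It was −0.28 in replicate 1 and −0.37 in replicate 2.

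SWEET1, SWEET4 and SWEET8 had the same order over the arrays, which was noticed after their values were seen. From low to high it was aluminium replicate 1, aluminium replicate 2, control replicate 2 and control replicate 1, an order that 5.92% of all plant probe sets had. The likeness of 2 genes was measured as the root mean square distance between their log2 values, each gene centred on its mean over the 4 arrays. It was 0.095 between SWEET1 and SWEET8, 0.16 between SWEET4 and SWEET8 and 0.20 between SWEET1 and SWEET4. The median over the 45 pairs of the 10 genes was 1.33, and no other pair lay within 0.25. SWEET3 and SWEET5 came next, at 0.27. SWEET7 and SWEET17 were the least alike, at 2.80.

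**Figure D3:**
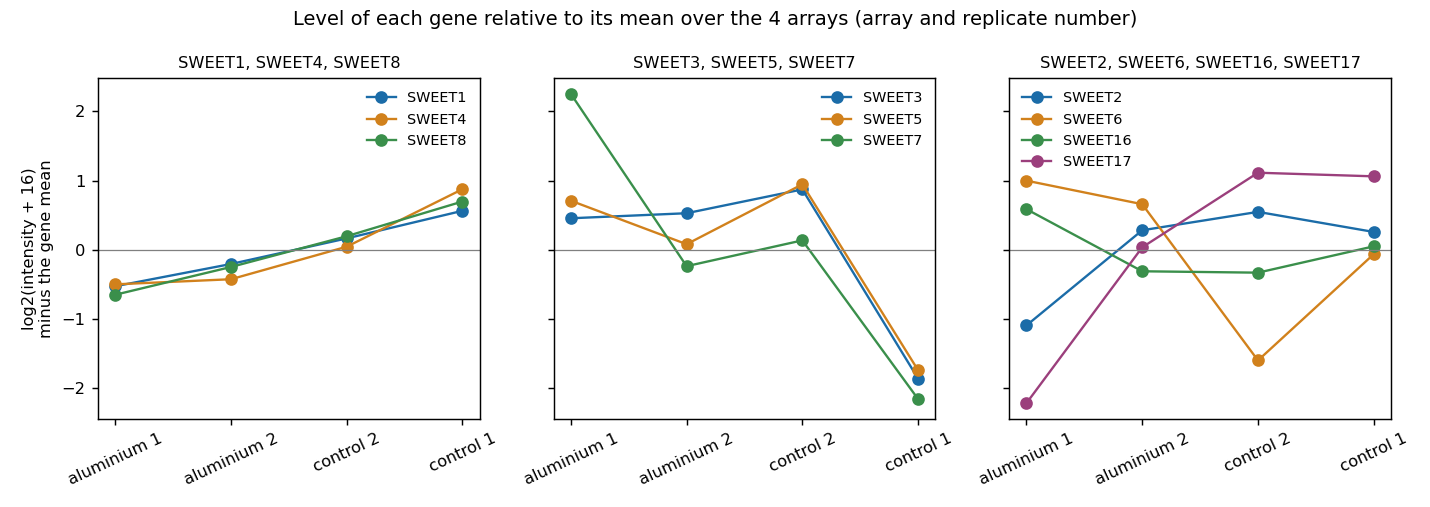
Log2(intensity + 16) of each hexose SWEET gene minus its mean over the 4 arrays, with the arrays placed in the order seen for SWEET1, SWEET4 and SWEET8; lines only join the points of a gene. SWEET1, SWEET4 and SWEET8 overlie each other closely, SWEET3, SWEET5 and SWEET7 share a low value on control replicate 1, and SWEET17 is lowest on aluminium replicate 1.

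The 3 markers of green tissue had the same order of arrays as SWEET1, SWEET4 and SWEET8. RCA, which keeps Rubisco active, had intensities of 2491 and 3421 on the aluminium arrays and of 12687 and 9585 on the control arrays. The summed intensity of RCA, LHCB4.1 and PRK was 4997 and 8980.3 with aluminium and 27064 and 18588 in controls. All 3 markers read lower on both aluminium arrays, and LHCB4.1, at 52.3, was under the background level on aluminium replicate 1. The 2 root markers, PYK10 and EXPA7, also had negative differences, −0.65 and −0.45, but with overlapping groups. Their sums were 573 and 1074 with aluminium and 1429 and 995 in controls. The part of green tissue, or of shortened transcripts on the aluminium arrays, in the SWEET differences was not tested. Without aluminium replicate 1 the differences were −0.57 for SWEET1, −0.88 for SWEET4 and −0.69 for SWEET8.

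Other genes lay close to the SWEET genes by the same measure. Among 13512 other probe sets with 1 gene, 376 lay within a distance of 0.25 of SWEET1, 202 of SWEET4 and 248 of SWEET8. For SWEET7 there were 5, for SWEET17 43, for SWEET6 52 and for SWEET16 631. Genes with small spread over the arrays have more neighbours, as SWEET16 did with an SD of 0.43 over the 4 arrays against 1.80 for SWEET7. The nearest gene was AT3G60410 for SWEET1 (distance 0.031), XPO1B for SWEET2 (0.062) and AT4G12640 for SWEET3 (0.023). It was AT1G35650 for SWEET4 (0.044), LCR72 for SWEET5 (0.062) and bZIP48 for SWEET6 (0.053). For SWEET7 it was AT2G04680 (0.088), for SWEET8 AT2G17210 (0.062), for SWEET16 4CL8 (0.014) and for SWEET17 AT4G13170 (0.11). The second nearest were AT3G57700, AT3G27050, AT4G27435, AT1G19430, AT4G21170, AT1G04380, AT1G52140, AT1G64355, AT4G23880 and AT1G67310, in the same order of members, at 0.021 to 0.16. Each distance rests on 4 arrays. Of these neighbours, AT3G60410, AT1G35650, AT4G21170, bZIP48 and AT2G17210 were under the background level on all 4 arrays, with intensities from 24.2 to 65.7 for AT3G60410.

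Other genes of sugar handling were taken from lists of 60 loci, of which 19 had a probe set paired with 1 gene. By limma adjusted over all plant probe sets 0 of the 19 passed in either direction, and 0 had an unadjusted p under 0.05. They had a median difference of 0.07, with 10 positive and 9 negative. Aluminium arrays lay both above the controls for 1 of them and both below for 5, where 16.5% and 16.2% of all plant probe sets did. The sign of the difference held for 8 of the 19 whichever array was left out.

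In clade III, whose SWEET proteins export sucrose, 6 of 7 genes were measured, with a median difference of 0.43. SWEET11, which loads sucrose into the phloem, gave 2543 and 4588 on the aluminium arrays and 9541 and 6109.7 on the control arrays. Its difference was −1.16 (standard error 0.73), and −0.73 without aluminium replicate 1. Its arrays stood in the same order as those of SWEET1, SWEET4 and SWEET8. For SWEET14 the aluminium arrays read 504 and 548 and the control arrays 109 and 329, and the difference was 1.38 (standard error 0.79). Leaving out control replicate 1 gave 0.65 and leaving out control replicate 2 gave 2.11, and aluminium replicate 2 was the 1 array above its background level. SWEET9 (−0.36), SWEET10 (1.19), SWEET13 (0.53) and SWEET15 (0.33) had overlapping groups.

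Of 14 loci listed as hexose-proton symporters, which take up glucose with proton energy, 4 were measured. AT5G61520 differed by −0.97 and AT1G34580 by −0.84, with both aluminium arrays below both controls. Without aluminium replicate 1 these differences were −0.31 and −0.08, and without aluminium replicate 2 they were −1.62 and −1.61. AT5G26250 (−0.09) and AT3G19940 (0.33) had overlapping groups, and no array showed AT3G19940 above its background level. Vacuolar transporters were represented by 4 of 8 loci. TMT1, TMT2 and TMT3, which load glucose into the vacuole, differed by 0.07, −0.43 and 0.82, with overlapping groups. AT5G17010 differed by −0.43, with 1216 and 1454 with aluminium below 1589 and 2033 in controls, and by −0.25 without control replicate 2.

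Among 16 loci listed as invertases and sucrose synthases, 2 were measured. For AT1G62660 the aluminium arrays gave 63.6 and 95.4 and the control arrays 963 and 75.0, so that its difference of −1.67 rested on control replicate 1. The other was cwINV6, which the reference table also names a fructan exohydrolase, at 0.61. In the list of hexokinases and fructokinases 3 of 6 loci were measured, AT2G31390 (0.33), AT3G59480 (−0.78) and AT1G66430 (0.11). The difference of AT3G59480, whose aluminium arrays lay below both controls, was −0.35 when control replicate 1 was left out and −1.20 when control replicate 2 was. The annotation used here gave a probe set paired with 1 gene to 0 of 9 loci listed as sucrose-proton symporters, which were not analysed here.

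**Figure D4:**
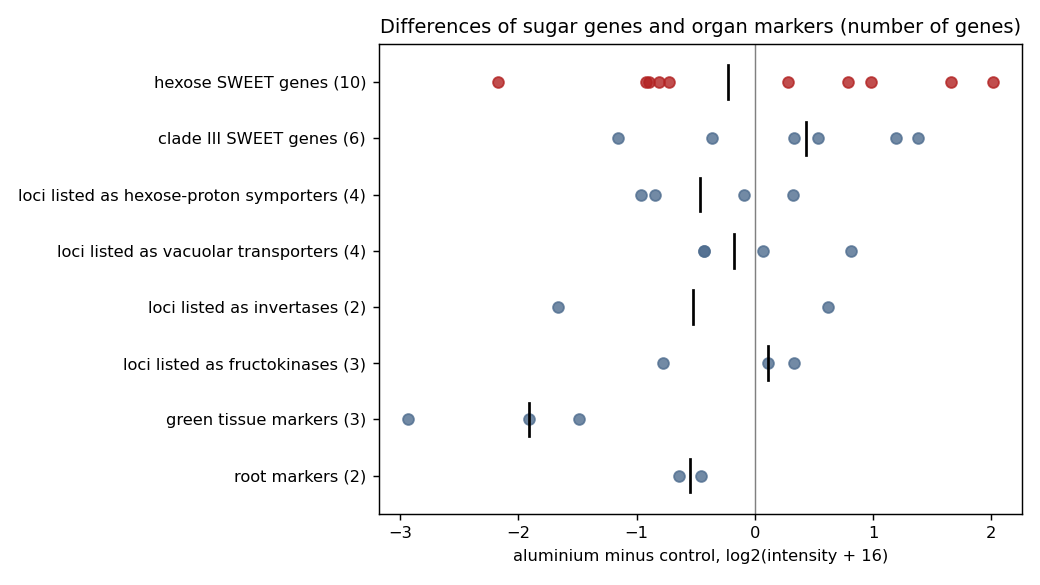
Difference between aluminium and control on the log2(intensity + 16) scale, with 1 point per gene and a black line at the median of each list; the number of genes stands in parentheses. The 10 hexose SWEET genes spread from −2.17 to 2.02 on both sides of 0, as do the other sugar lists. The 3 green tissue markers and the 2 root markers all lie below 0.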

How the data were processed

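Per the labels, RNA of 100 pooled seedlings per array was hybridised to Affymetrix ATH1 arrays. The deposited values are intensities on a linear scale, 1 per probe set and array. GCOS and RMA appear in the submitters' processing notes, with no role stated. The deposited intensities look globally scaled: the mean without the lowest and highest 2% was 500.0 on each array, with no quantile normalization seen.

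Intensities were put on the scale log2(intensity + 16), which understates fold changes of dim probe sets. After 64 control probe sets were left out, limma 3.58.1 in R 4.3.3 fitted group over 22746 plant probe sets, without a filter on dim values, with two-sided moderated tests and Benjamini-Hochberg adjustment (threshold 0.05). Of 13513 probe sets paired with 1 gene, 13436 matched a TAIR10.1 table by Entrez identifier. That table gave names and the loci by which the listed genes were found. The rule for named genes took all measured list members and the 2 nearest patterns per SWEET gene. The members and lists were chosen with earlier results of these data known. Alternatives were a replicate block, quantile normalization, pseudocounts 1 and 64, leaving out the dimmest 25% of probe sets, a spread that follows the mean, and leaving out each array. Replicate numbers were not taken to pair arrays: same-numbered arrays deviated together with r = 0.087 across plant probe sets. The hybridization controls and the 25S ribosomal RNA probe set were nevertheless brighter on the arrays numbered 1. Whether same-numbered arrays shared a processing step was not tested. The limma step was tested on simulated data as a check of the code, which does not show how well it finds changes in these arrays. Plots used matplotlib 3.10.9 in Python 3.11.15. The number of arrays limits the precision.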

Additional observations from a re-analysis of the deposited data

Results flagged for a closer look

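Some control probe sets, which take no part in the comparison of genes, had their highest value on aluminium replicate 1. Its 18 hybridization controls, which are added in the laboratory, had a geometric mean 2.57 times that of the brighter control array, and the 25S ribosomal RNA probe set was 2.58 times as bright. That geometric mean was 131442 and 11226 on aluminium replicates 1 and 2, and 51057 and 6339 on control replicates 1 and 2. The 25S probe set read 3511 and 533 on the aluminium arrays, and 1362 and 416 on the controls. By both measures the arrays numbered 1 were brighter than those numbered 2. Aluminium replicate 1 was also the array with the lowest value for 5 of the 10 hexose SWEET genes and the highest for 3, where 28.8% and 31.8% of all plant probe sets had their lowest and highest value there. The part of this in the SWEET differences was not tested.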

How the results depend on the processing

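Limma called 0 of the plant probe sets and 0 of the 10 hexose SWEET genes under each of the 10 alternatives. With the replicate block the call count remained 0, and the smallest adjusted p was 0.899. Numbers of probe sets at an unadjusted p under 0.05 ranged from 616 without control replicate 1 to 2532 without aluminium replicate 2. With all 4 arrays kept, SWEET17 alone of the 10 genes had an unadjusted limma p under 0.05 in some alternatives. These were the replicate block, pseudocount 64 and a spread that follows the mean. Of all 22746 plant probe sets, 1122, 1072 and 937 had such a p under these settings, in that order. The 2-fold rule without a test counted 1 gene higher and 1 lower; with 1 array left out the counts ranged from 1 to 3 higher and from 1 to 3 lower. The same rule then took 14.4% to 21.5% of all plant probe sets as higher and 14.8% to 21.6% as lower. The replicate block, the filter on dim probe sets and the spread that follows the mean leave each difference unchanged by design. Of 100 recomputed differences of single genes, those settings included, 97 kept their direction. The other 3 were SWEET3 (−0.38) and SWEET5 (−0.55) without control replicate 1, and SWEET16 (−0.17) without aluminium replicate 1, and the cause was not tested. With 1 array left out the difference ranged from −0.38 to 2.35 for SWEET3, from −0.55 to 2.13 for SWEET5 and from −0.17 to 0.73 for SWEET16. SWEET6 was not counted by the 2-fold rule without control replicate 2, where its difference was 0.89.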
